A study of Rattus norvegicus with 9 samples.

Results

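The 10 genes described here carry out and control antigen presentation by major histocompatibility complex (MHC) class II molecules. They are *RT1-Da*, *RT1-Db1*, *RT1-Ba*, *RT1-Bb*, *RT1-DMa*, *RT1-DMb*, *Cd74*, *Ciita*, *Cd80* and *Cd86*, picked by symbol from the 32883 genes of the deposited tables, and all 10 were found. Bulk RNA-seq was performed on 9 livers of male Sprague-Dawley rats, obtained at 8 to 11 weeks of age. There were 3 livers from normal rats, 3 from rats with acute-on-chronic liver failure (ACLF) connected to a circuit without cells or beads (the empty group) and 3 from ACLF rats treated with UTOpiA (the UTOpiA group). Both ACLF groups carried a bile duct ligation for 21 days, then received lipopolysaccharide (LPS) at 0.25 mg/kg and 2 h of extracorporeal whole-blood circulation, and their livers were taken 24 h after LPS. The labels of the normal rats name none of these procedures, so ligation, LPS and circulation cannot be told apart in any comparison with normal liver. In the UTOpiA circuit, a column of cellulose acetate beads that adsorb granulocytes and monocytes precedes a column of encapsulated human iPSC-derived hepatocyte-like cells, which carry knockouts that include CIITA. The labels call the 3 livers of each group biological replicates, and livers at 24 h come from rats alive at that time. Each library held 14241172 to 17321677 counted reads.

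Class II molecules are heterodimers of an alpha and a beta chain that show peptides from internalised proteins to CD4+ T cells. Dendritic cells, macrophages and B cells are their main bearers, and in liver these include Kupffer cells. *RT1-Da* and *RT1-Db1* encode the chains of RT1-D, the counterpart of human HLA-DR. *RT1-Ba* and *RT1-Bb* encode those of RT1-B, the counterpart of HLA-DQ. *Cd74* encodes the invariant chain, which fills the groove of new class II dimers and leads them to endosomes. RT1-DM, made of the *RT1-DMa* and *RT1-DMb* products, then removes the last invariant chain fragment and edits the bound peptide. *Ciita* encodes the transactivator that switches on class II promoters without binding DNA itself. *Cd80* and *Cd86* encode the B7 ligands, which bind CD28 and CTLA4 on T cells.

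The transactivator is recruited by factors bound to the X and Y boxes, short elements that class II promoters share at a fixed distance. The promoters of 8 members were matched by symbol in the RefSeq-derived table (GRCr8, 250 bases before to 50 after the start of the gene). They were searched on both strands for TGATTGG, the core of the Y box bound by NF-Y, and for GCAAC, a core of the X box bound by RFX. The motifs share no overlap in the pairs found. The windows below, each 60 bases written 5′ to 3′ on the strand of its gene, are shown because they hold the Y core on that strand, and capitals mark both cores.

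RT1-Da (chr20:4515321-4515380, plus strand): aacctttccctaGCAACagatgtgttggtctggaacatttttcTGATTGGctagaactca

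RT1-Db1 (chr20:4560228-4560287, minus strand): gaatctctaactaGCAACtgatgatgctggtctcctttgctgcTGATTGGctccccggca

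RT1-Ba (chr20:4576969-4577028, plus strand): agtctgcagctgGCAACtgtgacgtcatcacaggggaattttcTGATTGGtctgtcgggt

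RT1-Bb (chr20:4604165-4604224, minus strand): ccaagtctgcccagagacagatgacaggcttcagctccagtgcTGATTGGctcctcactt

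RT1-DMa (chr20:4712385-4712444, minus strand): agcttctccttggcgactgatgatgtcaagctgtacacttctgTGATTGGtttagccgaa

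The first 3 windows hold both cores, with the X core starting 31, 30 and 31 bases before the Y core in *RT1-Da*, *RT1-Db1* and *RT1-Ba*. The windows of *RT1-Bb* and *RT1-DMa* hold the Y core and no GCAAC. *Cd74* had a GCAAC without a Y core, and *Cd80* and *Cd86* had no Y core. Over 33469 promoters of the same 300 bases, 7.06% held TGATTGG and 35.1% held GCAAC on either strand. The pair at a distance of 25 to 40 bases was rarer, at 18 promoters on the strand of the gene (0.0538%) and 42 on either strand (0.125%). Among the 18 were 7 rat class II genes, including *RT1-DOa* and *RT1-DOb*, which encode the chains of RT1-DO, a modulator of RT1-DM. A match describes the letters of a window and does not show that a factor binds there.

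**Figure D1:**
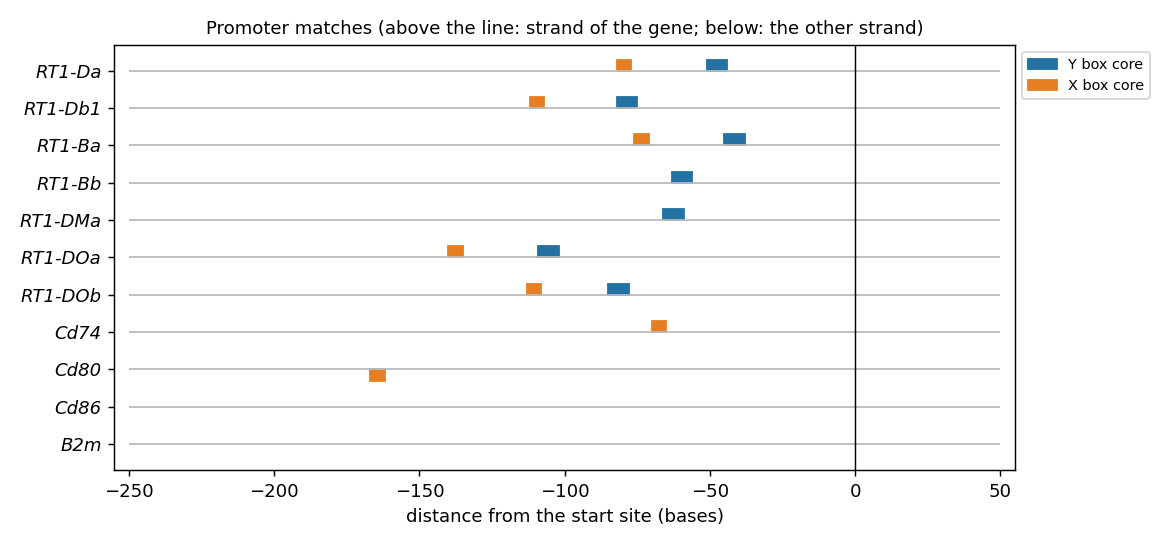
Positions of the Y box core (blue) and X box core (orange) in the promoters of the 8 members in the table, of *RT1-DOa* and *RT1-DOb*, and of *B2m*, the class I light chain. The x axis is the distance from the start of the gene in bases, and marks above a line lie on the strand of the gene. *Cd80* has 2 entries, of which the first is drawn. The 5 promoters with both cores have them 28 to 31 bases apart, whereas *Cd86* and *B2m* show no mark.

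In the tables' own coordinates the 6 RT1 members lie in 197 kb of chromosome 20, between 3935529 and 4132616, a stretch with 13 genes. *RT1-Da* spans 4127644 to 4132616 and *RT1-DMb* 3945601 to 3952846, and all 10 members are listed as protein-coding. The labels name the build rn6 and the study's methods name a mouse build, so these positions were not compared with the GRCr8 windows. The class II chains are polymorphic and near copies of each other, and uniquely mapped reads were counted against a single reference, which makes the count of each RT1 gene uncertain.

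Class II genes were higher in both ACLF groups than in normal liver, and no member differed by the test between the ACLF groups. Differentially expressed genes (DEGs) were called by edgeR's quasi-likelihood test over 14089 genes where the p adjusted by Benjamini-Hochberg was under 0.05 and the fold above 2. In the empty group 9 of 10 members were called higher than normal, against 20.7% of all genes tested, and none lower, against 11.1%. In the UTOpiA group 8 of 10 were called higher than normal, against 18.2% of all genes, and none lower, against 6.81%, a count that was 5 without normal replicate 2. Both counts use the same normal livers. Only 6 members reached the level of the count filter (0.646 CPM) in all 3 normal livers, whereas *Cd86* did so in 2 of them and *RT1-DMa*, *RT1-DMb* and *Cd80* in none. The filter asked for that level in 3 of the 9 livers, so the last 3 genes entered the test only through ACLF livers, where they had to be higher to pass, and *Cd86* needed at least 1 ACLF liver. Of the 6 members at that level, 6 were called in the empty livers and 5 in the UTOpiA livers, with median log2 fold changes of 3.48 and 2.88, beside 0.04 and 0.05 over all genes. The TPM (transcript level scaled by gene length and library total) of every ACLF liver lay above every normal liver for all 10 members in both comparisons. Such separation in TPM holds for 53.4% of all genes in the empty livers and 39.0% in the UTOpiA livers. For *Cd80* in the UTOpiA livers it rests on the TPM scale. UTOpiA replicate 1 (TPM 0.0805) and normal replicate 2 (TPM 0.0796) had 3 counts each. The normalised library size was larger in UTOpiA replicate 1, so scaling by that size puts this liver below normal replicate 2.

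**Figure D2:**
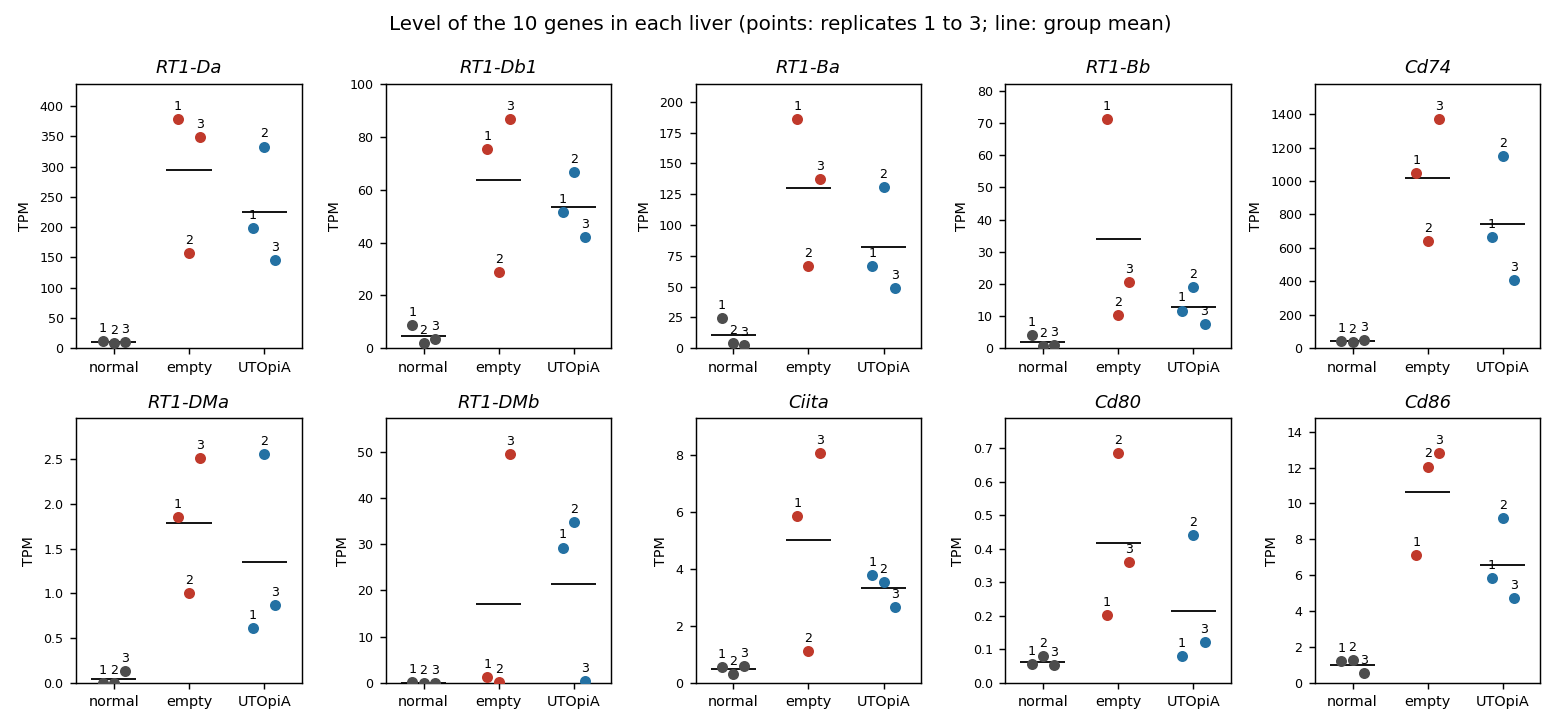
TPM of each member in each liver on linear axes from 0, with 1 panel per gene, numbers for the replicates and a line at the mean of each group of 3. All ACLF points lie above the normal points in every panel, although UTOpiA replicate 1 and normal replicate 2 nearly coincide for *Cd80*. The empty and UTOpiA points overlap in every panel, and *RT1-DMb* splits into high and low livers within both ACLF groups.

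*RT1-Da*, the RT1-D alpha chain, was the most abundant classical chain in each ACLF liver. Its TPM were 12.3, 8.93 and 10.2 in the normal livers. They were 379, 157 and 349 in the empty livers and 199, 333 and 145 in the UTOpiA livers. The normal livers lay close together, every ACLF liver was far above them, and the ACLF groups overlapped. *RT1-Da* was 19.7-fold higher in the empty livers than in normal liver (log2 4.30, SE 0.38, adjusted p = 7.39e-05 by edgeR). In the UTOpiA group it was 16.6-fold higher than normal (log2 4.06, SE 0.37, adjusted p = 0.000127).

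*RT1-Db1*, its beta chain partner, had TPM of 8.65, 2.03 and 3.42 in the normal livers. It stood at 75.7, 28.8 and 87.0 in the empty livers and 51.5, 66.7 and 42.0 in the UTOpiA livers. Normal replicate 1 was the highest normal liver, and empty replicate 2 lay below all 3 UTOpiA livers. The difference from normal was 9.41-fold in the empty livers (log2 3.23, SE 0.56, adjusted p = 0.00197) and 8.97-fold in the UTOpiA livers (log2 3.17, SE 0.56, adjusted p = 0.00305). Without normal replicate 1 these log2 values were 4.01 and 3.95. The 2 calls and those of *RT1-Da* held in all 18 alternative fits.

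*RT1-Ba*, the RT1-B alpha chain, had TPM of 24.3, 3.98 and 2.64 in the normal livers. The empty group had 186, 66.8 and 137, and the UTOpiA group 66.7, 131 and 48.6. Normal replicate 1 again stood above the other normal livers, and the lowest ACLF liver was still above it. *RT1-Ba* was 8.87-fold higher than normal in the empty livers (log2 3.15, SE 0.80, adjusted p = 0.0115), a call held in all 18 alternatives, with a log2 value of 4.78 without normal replicate 1. It was 6.08-fold higher in the UTOpiA livers (95% interval 1.76 to 21.1, adjusted p = 0.0292), and that call was lost in 5 of 18 alternatives, among them those without normal replicate 2 or 3 and without UTOpiA replicate 1 or 2. Without normal replicate 1 its log2 value was 4.24.

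*RT1-Bb*, the RT1-B beta chain, had TPM of 3.95, 0.668 and 0.946 in the normal livers. The empty group had 71.3, 10.4 and 20.5, and the UTOpiA group 11.7, 18.9 and 7.64. Empty replicate 1 stood apart at over 3 times the next liver of any group. The gene was 13.2-fold higher than normal in the empty livers (log2 3.73, SE 0.89, adjusted p = 0.00845), with log2 values of 2.47 without empty replicate 1 and 4.91 without normal replicate 1. Its log2 difference from normal in the UTOpiA livers was 2.40 (SE 0.85) and narrowly missed the threshold (adjusted p = 0.0521), although 10 of 18 alternatives, DESeq2 among them, called it, and it was 3.59 without normal replicate 1.

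*Cd74*, the invariant chain, was the most abundant of the 10 genes in every liver. Its TPM were 44.8, 34.1 and 45.6 in the normal livers. They were 1045, 639 and 1371 in the empty livers and 663, 1150 and 407 in the UTOpiA livers. The normal livers differed little, and the lowest ACLF liver, UTOpiA replicate 3, was far above them. *Cd74* was 17.0-fold higher than normal in the empty livers (log2 4.08, SE 0.36, adjusted p = 7.50e-05) and 13.6-fold higher in the UTOpiA livers (log2 3.76, SE 0.35, adjusted p = 0.000143). Both calls held in all 18 alternatives.

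*RT1-DMa*, the alpha chain of the peptide editor, was barely detected in normal liver, with 0, 0 and 2 counts. It had 32, 16 and 41 counts in the empty livers and 9, 41 and 14 in the UTOpiA livers. No ACLF liver was as low as a normal one. Summed over the 3 livers and scaled by the normalised library sizes, its ratio to normal was 27.3 in the empty livers (95% exact interval 7.33 to 229) and 23.8 in the UTOpiA livers (6.32 to 200.4). Such intervals cover counting error only. Both ratios rest on the 2 counts of normal replicate 3, without which the ratio in the UTOpiA livers was at least 10.5, against a floor of 3 counts over the normal group, and the bound in the empty livers was higher. The UTOpiA ratio was 14.4 without UTOpiA replicate 2, and without normal replicate 2 the ratios were 17.9 and 15.6. edgeR called *RT1-DMa* higher in both ACLF groups (adjusted p = 0.00391 and 0.00744).

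*RT1-DMb*, the beta chain of the same dimer, did not follow *RT1-DMa*. Its counts were 2, 1 and 0 in the normal livers. They were 21, 4 and 812 in the empty livers and 429, 559 and 5 in the UTOpiA livers. Empty replicate 3 and UTOpiA replicates 1 and 2 were thus high, at TPM of 49.6, 29.3 and 34.8, and the other 3 ACLF livers were low, at 1.21, 0.249 and 0.311. Both ACLF groups held high and low livers. The spread of log2 CPM over the 6 ACLF livers was 6.85, the 14th widest of the 14089 genes, whose median was 0.91. The summed count ratio to normal was 171 in the empty livers (58.3 to 831) and 246 in the UTOpiA livers (83.9 to 1194), intervals that leave out the spread between livers. Without empty replicate 3, which held 812 of 837 counts, the first ratio was 7.91, and the ratios were 350.0 and 503 without normal replicate 1 and 113 and 163 without normal replicate 3. With that spread, the adjusted p was 0.0523 in the empty livers, where the gene was not called, and 0.0477 in the UTOpiA livers, where it was called. The first was called in 3 of 15 alternatives and the second in 5 of 15.

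*Ciita*, the transactivator, had TPM of 0.566, 0.320 and 0.589 in the normal livers. The empty group had 5.84, 1.12 and 8.04, and the UTOpiA group 3.78, 3.54 and 2.68. Empty replicate 2 was the lowest ACLF liver and lay closer to the normal livers than to the other livers of its group. *Ciita* was 6.97-fold higher than normal in the empty livers (log2 2.80, SE 0.62, adjusted p = 0.00558) and 5.38-fold higher in the UTOpiA livers (log2 2.43, SE 0.61, adjusted p = 0.0136). The second call was lost without normal replicate 2 and in limma without a TPM filter.

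The B7 ligands differed in level. *Cd86* had TPM of 1.21, 1.27 and 0.563 in the normal livers. The empty group had 7.14, 12.1 and 12.8, and the UTOpiA group 5.84, 9.17 and 4.74. The groups of ACLF livers met between 7.14 and 9.17, and all 6 were above normal. *Cd86* was 7.25-fold higher than normal in the empty livers (log2 2.86, SE 0.34, adjusted p = 0.000254) and 5.06-fold higher in the UTOpiA livers (log2 2.34, SE 0.34, adjusted p = 0.000917), and all 17 alternatives that tested it held both calls. *Cd80* was close to the limit of detection, with 2, 3 and 2 counts in the normal livers. It had 9, 28 and 15 counts in the empty livers and 3, 18 and 5 in the UTOpiA livers, so that UTOpiA replicate 1 was as low as normal replicate 2 in counts. edgeR called *Cd80* higher in the empty livers (log2 2.16, SE 0.76, adjusted p = 0.0395; 1.57 without empty replicate 2), but only 6 of 14 alternatives did, and the call was lost without any 1 of the normal livers. In the UTOpiA group its log2 difference from normal was 1.35 (SE 0.79, adjusted p = 0.200), and it was not called in any of 14 alternatives (0.52 without UTOpiA replicate 2).

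**Figure D3:**
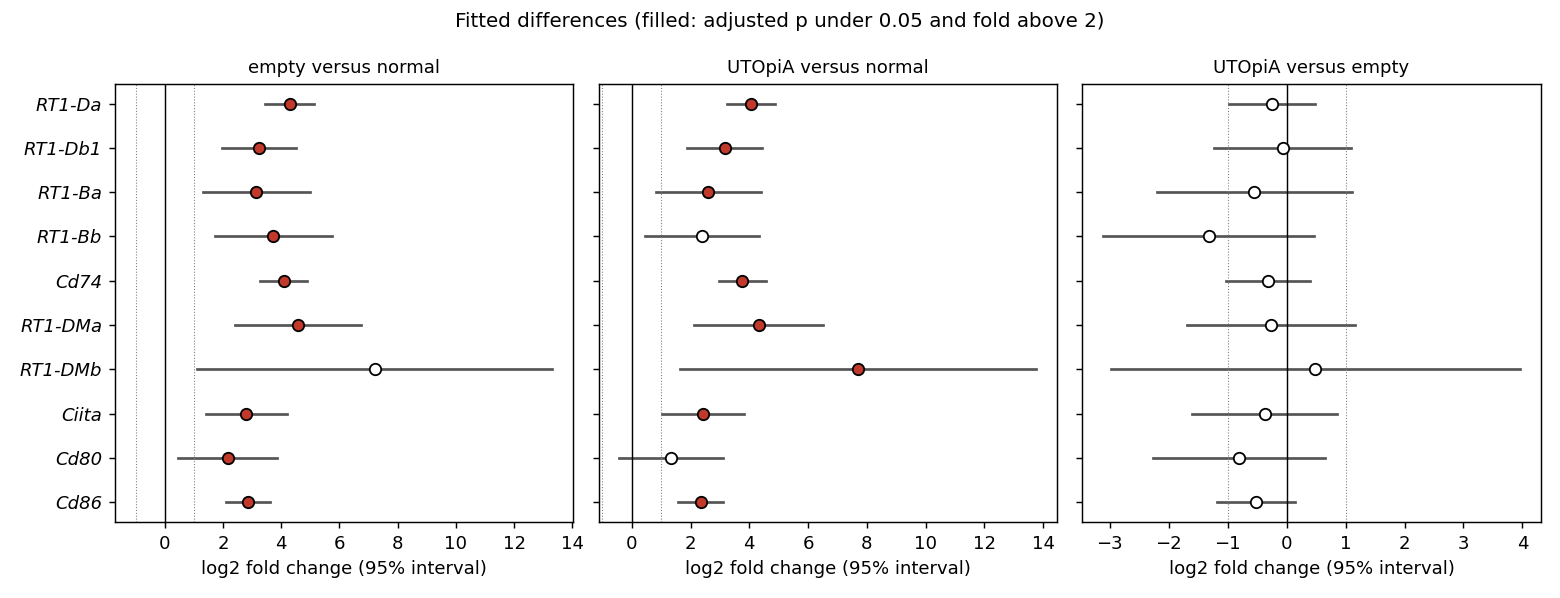
Log2 fold changes fitted by edgeR for each member in the 3 comparisons, with 95% intervals; filled points passed the adjusted p and fold thresholds, and dotted lines mark a 2-fold change. Filled points number 9, 8 and 0 from left to right, and all intervals in the right panel include 0.

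Between the UTOpiA and empty groups, which asks whether the treatment altered the class II genes of ACLF liver, edgeR called 0 of 10 members, against 0.0% of all genes higher and 0.0% lower. At an unadjusted p under 0.05 the count was also 0 of 10, against 10.3% of all genes, and the smallest unadjusted p was 0.114 (*Cd86*, by edgeR). Without empty replicate 2 that count was 2 of 10, with all 10 differences negative. The smallest edgeR p was then 0.00621, and the smallest adjusted p 0.148. Without empty replicate 1 or 3 the count was 1 of 10. The share of all genes in these fits is not given here. DESeq2 called 0 of the 9 members it tested, against 0.364% of all genes higher and 0.518% lower, and limma called 0 as well. For this comparison the study reported more genes in each direction, by DESeq2 at the same thresholds, than were called here. The reason was not tested. The 3 UTOpiA livers overlapped the 3 empty livers for all 10 members, whereas 2.43% of all genes lay entirely above and 8.62% entirely below.

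The fitted log2 difference, UTOpiA minus empty, was negative in 9 members and positive in *RT1-DMb*. For *RT1-Da* it was -0.24 with a 95% interval of -0.97 to 0.49, and for *Cd74* -0.32 with an interval of -1.03 to 0.39. The interval of *Cd86* reached from -1.19 to 0.15 and that of *Ciita* from -1.60 to 0.86. *Cd74* and *RT1-Da* thus had the tightest bounds among the class II chains, and a decrease by up to about 2-fold lay within both. *RT1-Bb* ranged from -3.11 to 0.47 and *RT1-DMb* from -2.98 to 3.95, so that a 4-fold decrease of either gene, and a 4-fold increase of *RT1-DMb*, lay within the intervals with 3 livers a group. The missed threshold does not show that the groups were alike. Empty replicate 1 carried much of the *RT1-Bb* value, which was -1.32 with all livers and -0.07 without that liver. The *RT1-DMb* value was 0.49 with all livers and 4.83 without empty replicate 3. Without empty replicate 2 the values of *RT1-Da* and *Ciita* were -0.54 and -0.84, still not called.

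The level of each chain was also set relative to *Cd74*. *RT1-Da* lay between 246 and 363 TPM per 1000 TPM of *Cd74* over the 6 ACLF livers, a 1.48-fold range, and between 223 and 274 in normal livers. *RT1-Db1* lay between 45.0 and 103 in ACLF livers, a 2.29-fold range. *RT1-Ba* lay between 100.2 and 178 in ACLF livers, but at 543 in normal replicate 1 and at 117 and 58.0 in the other normal livers. *RT1-Bb* was 68.2 in empty replicate 1 and 14.9 to 18.8 in the other 5 ACLF livers. *RT1-DMb* ranged from 0.390 to 44.2, a 113-fold range, whereas *RT1-DMa* ranged 2.39-fold. Normal replicate 1 was thus raised for *RT1-Db1*, *RT1-Ba* and *RT1-Bb* against *Cd74*, but not for *RT1-Da*.

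**Figure D4:**
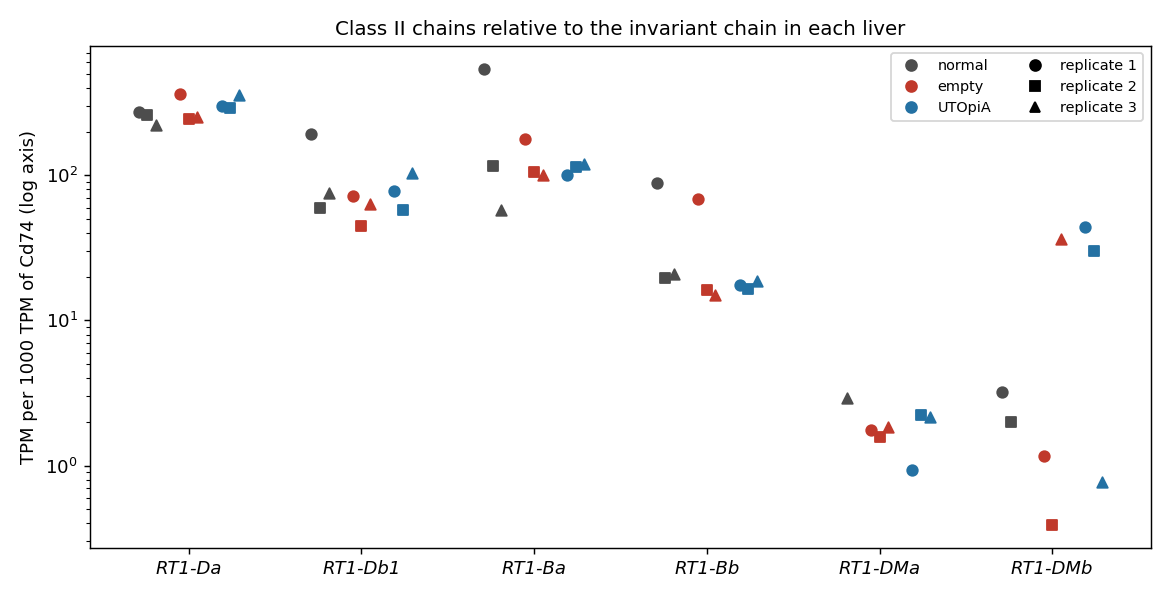
TPM of 6 class II chains per 1000 TPM of *Cd74* in each liver, on a log axis; color gives the group and marker shape the replicate. The 3 livers without *RT1-DMa* or *RT1-DMb* counts (normal replicates 1 and 2, and normal replicate 3) have no point for that gene. *RT1-DMb* falls into points from 30.2 to 44.2 and points at or below 3.20, and *RT1-Bb* and *RT1-Ba* are highest in normal replicate 1.

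Ratios of partner genes were compared between groups by two-sided exact permutation tests, 13 in all, whose smallest possible p is 0.1 for 3 livers against 3. None had an exact p below 0.2, or below 0.65 after adjustment over the 13. The alpha to beta ratio of RT1-D was 1.42, 4.41 and 2.97 in normal livers, 5.01, 5.46 and 4.01 in the empty livers and 3.86, 5.0 and 3.46 in the UTOpiA livers. The alpha to beta ratio of RT1-B was 2.61 in empty replicate 1 and 5.70 to 6.91 in the other ACLF livers. The *RT1-DMa* to *RT1-DMb* ratio was 0.0211 to 0.0736 in the 3 ACLF livers with high *RT1-DMb* and 1.53 to 4.02 in the others. The *Cd86* to *Cd80* ratio was 10.8 to 21.5 in normal livers, 17.6 to 35.5 in the empty livers and 20.8 to 72.5 in the UTOpiA livers. The groups overlapped in every one of these ratios.

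Of the other class II chains, *RT1-DOa* and *RT1-DOb* were detected at low level. *RT1-DOa* had 1, 1 and 0 counts in normal livers, 59, 3 and 60 in the empty livers and 21, 46 and 12 in the UTOpiA livers. *RT1-DOb* had 5, 1 and 2 counts in normal livers and 15 to 29 in every ACLF liver. Both were called higher than normal in both ACLF groups, but neither reached the level of the count filter in any normal liver, so both had to be higher in ACLF livers to be tested. The summed count ratio of *RT1-DOa* was 37.4 (10.1 to 312) in the empty livers and 29.3 (7.86 to 246) in the UTOpiA livers, where its call was lost without normal replicate 2 or 3. Without normal replicate 3 these ratios were 24.7 and 19.4. *RT1-Db2* had at most 3 counts in any liver, *RT1-Ha* had 0 in all, and neither could be tested.

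Genes for processing antigen and the invariant chain rose in part. Of 14 tested, 8 were called higher and 1 lower in the empty livers, with a median of 1.59 on the log2 scale, and 7 higher and 1 lower in the UTOpiA livers, with a median of 1.23. Over all genes 20.7% were higher and 11.1% lower in the empty livers, and 18.2% and 6.81% in the UTOpiA livers. *Ctss*, the cathepsin that trims the invariant chain, had TPM of 44.2, 35.8 and 35.1 in the normal livers, 414, 239 and 359 in the empty livers and 144, 315 and 118 in the UTOpiA livers. It rose by 2.62 and 1.94 on the log2 scale. *Ctse*, another endosomal protease, rose by 4.48 and 3.46, and *Cst7*, a cystatin that inhibits cathepsins, by 3.66 and 3.01, the last lost without UTOpiA replicate 2 (2.19) or normal replicate 1 or 2. *Marchf1*, a ubiquitin ligase that removes class II from the cell surface, rose by 2.67 in the empty livers (5.18 without normal replicate 3), a call lost without normal replicate 1 or 2 or empty replicate 1 or 3. In the UTOpiA group its value was 2.27 and not called, but 4.77 and called without normal replicate 3. *Ctsc*, a dipeptidyl peptidase, fell by 1.05 in the empty livers and by 1.18 in the UTOpiA livers, and the first fell below the 2-fold limit without empty replicate 1 or 3.

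Of 8 factors tested that bind class II promoters or act there with *Ciita*, 1 was called higher in the empty livers and 2 in the UTOpiA livers, with medians of 0.16 and 0.14. Over all genes 20.7% and 18.2% were called higher. *Rfx5*, a subunit of RFX, had TPM of 4.46, 5.38 and 4.06 in the normal livers, 9.13, 16.0 and 15.8 in the empty livers and 13.8, 18.7 and 8.32 in the UTOpiA livers. Its log2 fold change of 1.03 in the empty livers was just past the 2-fold limit and fell short of it without normal replicate 1 or 3 or empty replicate 2 or 3, whereas 1.19 in the UTOpiA livers held. *Rfxank*, another RFX subunit, had values of 0.47 and 0.65, under 2-fold. *Nfya* of the Y box factor had 0.91 in the empty livers and was called at 1.03 in the UTOpiA livers, a call lost without normal replicate 3. *Nfyc* had -0.36 and -0.34, and *Rfxap* had at most 2 counts in any liver.

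Interferon gamma is the best known inducer of *Ciita*. *Ifng* itself had 0 or 1 count in each of the 9 livers and could not be tested. A list of its signalling genes and of regulators of *Ciita* had 14 genes tested, of which 10 were called higher in the empty livers and 7 in the UTOpiA livers (4 without normal replicate 2), against 20.7% and 18.2% of all genes. The medians were 1.83 and 1.21. Of the 9 genes from the receptor to transcription factors, 5 and 4 were called, and of the 5 restraining genes and cytokines, 5 and 3. The receptor genes *Ifngr1* and *Ifngr2* rose by 1.96 and 2.03 in the empty livers and by 1.52 and 1.87 in the UTOpiA livers. *Irf1*, a transcription factor induced by interferon gamma, had TPM of 27.1, 186 and 40.1 in the empty livers, and its log2 value of 1.81 was 0.44 without empty replicate 2. Its call was lost in 7 of 9 fits with 1 liver left out, those without that liver or any 1 of the normal or UTOpiA livers. In the UTOpiA group *Irf1* had 0.59, not called.

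The 5 others include genes that restrain class II. *Il10*, a cytokine that lowers class II on macrophages, had 2, 0 and 0 counts in normal livers, 42, 59 and 20 in the empty livers and 9, 18 and 3 in the UTOpiA livers. It was called higher in both ACLF groups, in the UTOpiA livers lost in 5 of 9 fits with 1 liver left out. *Socs3*, a feedback inhibitor of cytokine signals, rose by 4.31 in the empty livers (3.04 without empty replicate 2 and 5.38 without normal replicate 1) and by 2.76 in the UTOpiA livers (3.82 without normal replicate 1), where 4 of 9 such fits lost the call. *Socs1*, which inhibits the interferon gamma signal, rose by 2.46 in the empty livers (3.75 without normal replicate 1), lost in 4 of 9, and had 0.48 in the UTOpiA livers, not called (1.77 without normal replicate 1 and -0.21 without UTOpiA replicate 1). *Prdm1*, a repressor of *Ciita* in plasma cells, rose by 2.05 in the empty livers and had 1.28 in the UTOpiA livers, not called (1.58 and called without UTOpiA replicate 3). Empty replicate 2 had the highest *Irf1*, *Socs1*, *Socs3* and *Il10* of the 9 livers and the lowest *Ciita* of the 6 ACLF livers. *Prdm1*, however, was highest in empty replicate 3 (TPM 1.66, beside 1.41 in empty replicate 2). *Tgfb1*, also among the 5, was lowest of the empty group in empty replicate 2 (TPM 18.7). A link between these genes and *Ciita* was not tested.

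Of 18 costimulatory and coinhibitory genes, 10 could be tested, and 6 were called higher and 1 lower in the empty livers and 4 higher in the UTOpiA livers (7 without empty replicate 2), with medians of 2.15 and 1.60. Over all genes 20.7% were higher and 11.1% lower in the empty livers and 18.2% higher in the UTOpiA livers. The gene called lower was *Tnfrsf9*, the 4-1BB receptor, at -1.58. *Vtcn1*, a B7 family inhibitor, had 0 counts in all 3 normal livers, 266 to 538 in the empty livers and 41 to 390 in the UTOpiA livers. Against a floor of 3 counts over the normal group it was at least 247-fold and at least 125-fold higher, the second at least 48.5-fold without UTOpiA replicate 2, which held 390 of the 506 counts of its group. With 1 normal liver left out and the same floor, the bounds were 162 to 169 and 82.2 to 85.5. *Tnfsf9*, the 4-1BB ligand, had 0, 0 and 1 count in normal livers, 13, 58 and 7 in the empty livers and 9, 17 and 3 in the UTOpiA livers, where 6 of 9 fits with 1 liver left out lost its call. *Vsir*, another inhibitory B7 relative, rose by 2.43 and 1.99, and *Cd276*, which encodes B7-H3, by 1.88 and 1.46. *Cd27*, a T cell receptor for costimulation, had 0 to 2 counts in the normal livers and 5 to 20 in ACLF livers. edgeR did not call it (adjusted p = 0.0531 and 0.0603), but did in both groups without empty replicate 2 or without UTOpiA replicate 2, and DESeq2 gave adjusted p = 0.0370 and 0.0407. *Cd274*, which encodes PD-L1, had 0.32 and -0.41, not called. The receptors of the B7 ligands were too low to test, with *Cd28* at 1 to 17 counts and *Ctla4* at 0 to 9.

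Class I presentation is the parallel path for peptides from the cell's own proteins. Of 21 genes tested, 4 were called higher in the empty livers and 2 in the UTOpiA livers (5 without normal replicate 1 and 4 without UTOpiA replicate 3), with medians of 0.51 and 0.34. The share of all genes was 20.7% and 18.2%, which the counts with all livers did not exceed. *B2m*, the class I light chain, rose by 1.17 in the empty livers and had 0.88 in the UTOpiA livers. *Psmb10*, an immunoproteasome subunit, rose by 1.28 and 1.20, and *RT1-M3-1*, a class Ib gene, by 2.46 and 2.16. *Tap2*, a subunit of the peptide transporter within the same 197 kb, had 1, 27 and 19 counts in normal livers, 156, 245 and 65 in the empty livers and 63, 21 and 17 in the UTOpiA livers. Its call in the empty livers (log2 2.65, and 3.27 without normal replicate 2) was lost without normal replicate 1 or 3 or empty replicate 1 or 2. *Nlrc5*, the class I counterpart of *Ciita*, had -0.20 and -0.36 and was not called. For all 6 lists of related genes, edgeR called 0 between the UTOpiA and empty groups. As with the members, some list genes were not at the level of the count filter in all 3 normal livers. These were *Ctse*, *Cst7*, *Marchf1*, *Socs1*, *Prdm1*, *Il10*, *Cd40*, *Vtcn1*, *Tnfsf9*, *Cd27* and *Tap2*. Without them 5 of 11 processing genes, 7 of 11 genes of the interferon gamma list and 3 of 6 costimulation genes were called higher in the empty livers, and 5, 6 and 2 in the UTOpiA livers.

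In bulk liver, more class II RNA per cell and more class II-bearing cells cannot be told apart, and cell type markers moved with the members. The 4 pan-leukocyte markers were all called higher in both ACLF groups, and their summed TPM was 18.1 to 23.0 in normal livers, 96.7 to 243 in the empty livers and 62.3 to 196 in the UTOpiA livers. *Ptprc*, which encodes CD45, rose by 2.23 and 2.07. The 7 chain members (the 6 RT1 genes and *Cd74*) summed to 49.7 to 94.2 TPM in normal livers, 903 to 2017 in the empty livers and 652 to 1737 in the UTOpiA livers. On the log2 scale the ratio of the 7 to the leukocyte markers was 1.46 to 2.03 in normal livers, 3.05 to 3.22 in the empty livers and 3.04 to 3.39 in the UTOpiA livers. The ACLF livers lay above the normal livers in that ratio, and the ACLF groups overlapped. Of 12 marker lists, this ratio was higher in all ACLF livers than in all normal livers for 9, overlapped for 2 (dendritic cells and cholangiocytes) and was lower for 1 (neutrophils). Against macrophage and Kupffer markers it was -3.34 to -2.67 in the normal livers and -0.98 to 0.10 in ACLF livers, and against B cell markers 3.86 to 5.30 and 7.03 to 8.44. Against dendritic cell markers it was 2.83 to 3.63 in the normal livers and 3.36 to 5.66 in ACLF livers, where empty replicate 2 was the lowest. Against monocyte markers it was 0.20 to 0.45 in the normal livers and 0.49 to 1.42 in ACLF livers. Against neutrophil markers it was lower in ACLF livers, at 0.86 to 2.25 beside 3.99 to 4.66 in the normal livers. Against cholangiocyte markers the groups overlapped, at 1.01 to 2.55 in the normal livers and 1.08 to 2.53 in ACLF livers. The part of cell numbers in the members' differences was not tested.

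Among cells that bear class II, macrophage and Kupffer markers were called higher for 8 of 11 genes in the empty livers and 7 in the UTOpiA livers, against 20.7% and 18.2% of all genes. Markers of Kupffer cells did not move as one. *Marco* was called at 1.23 and 1.43, each lost in 4 of 9 fits with 1 liver left out, whereas *Cd5l* (-0.01 and 0.24, the second -0.37 without UTOpiA replicate 1), *Vsig4* (0.45 and 0.66) and *Clec4f* (-0.85 and -0.74) were not called. *Clec4f* had 628, 4050 and 260 counts in the empty livers (SE 0.97), and without empty replicate 2 its log2 value there was -2.81 and called lower. The list's sums were 504 to 601, 1781 to 2465 and 912 to 2290 TPM in the normal, empty and UTOpiA groups. Monocyte markers were called for 6 of 6 and 5 of 6, with sums of 43.4 to 68.9, 489 to 1102 and 243 to 1237 TPM. Dendritic cell markers were called for 3 of 7 tested in both groups (*Itgax* and *Clec10a* in both, *Cd83* in the empty and *Batf3* in the UTOpiA livers), with sums of 6.96 to 7.63, 40.2 to 88.1 and 17.2 to 54.6, while *Flt3*, *Xcr1*, *Cd209a* and *Siglech* had mean TPM below 1 in every group. B cell markers were called for 0 of 6 in either ACLF group by edgeR. Their sums were 2.39 to 4.34, 3.52 to 7.95 and 4.99 to 7.30 TPM, and the defining genes *Ms4a1*, *Cd79a*, *Cd79b* and *Pax5* had mean TPM below 1 in every group. Empty replicate 2, the lowest empty liver for *Cd74* and the 4 classical chains, also had the lowest leukocyte sum of its group, as UTOpiA replicate 3 had of its own.

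**Figure D5:**
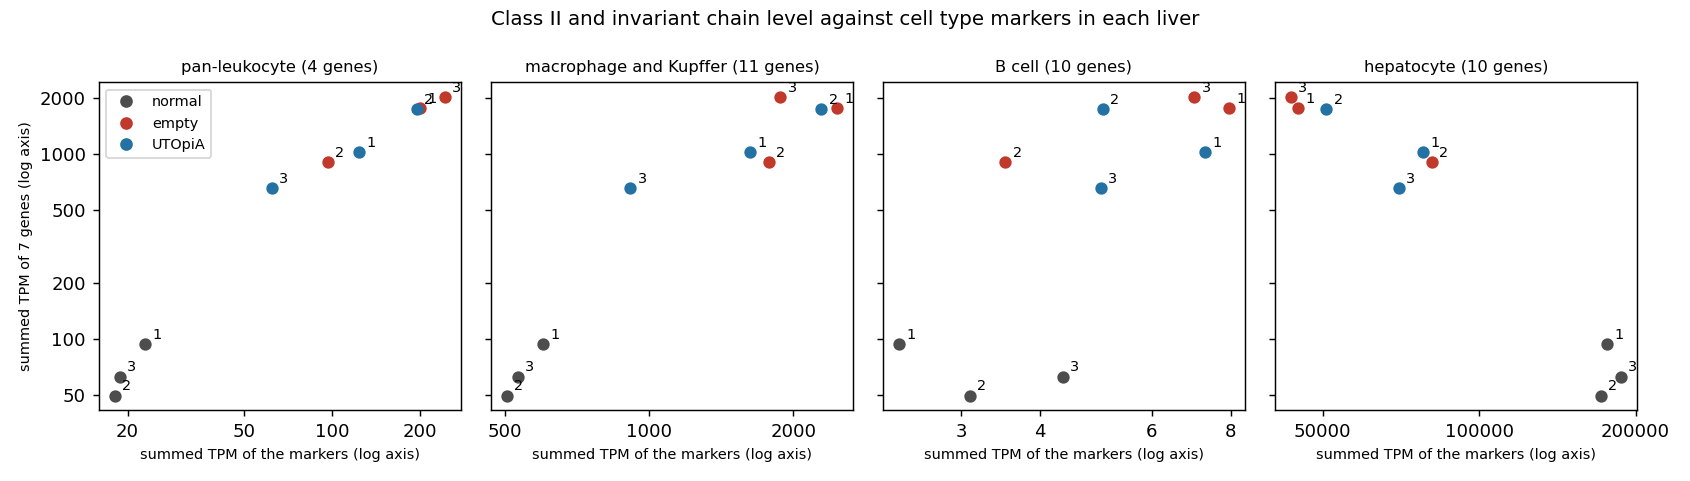
Summed TPM of the 7 chain members (y) against the summed TPM of 4 marker lists (x) in each liver, on log axes, with the group by color and the replicate by number. Leukocyte sums rise from 18.1 to 243 TPM with the chain sums, B cell sums stay below 8 TPM in all 9 livers, and hepatocyte sums are lower in all ACLF livers than in normal livers.

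The calls of the remaining markers stand beside 20.7% and 18.2% of all genes higher and 11.1% and 6.81% lower in the empty and UTOpiA livers. Many of these genes were too low in normal liver to pass the count filter there and had to be higher in ACLF livers to be tested. All 3 normal livers reached its level for 2 of 10 T cell, 1 of 2 plasma cell, 0 of 5 neutrophil, 1 of 6 cholangiocyte, 3 of 7 dendritic cell, 1 of 6 B cell and 5 of 6 monocyte markers, and for all tested markers of the other lists. Those of T cells were called higher for 7 of 10 in both ACLF groups, and plasma cell markers for 1 of 2 (*Derl3*). Neutrophil markers were called for 5 of 5 tested, with sums of 2.35 to 5.92, 190 to 1109 and 175 to 507 TPM, and *Ltf* was at 0 in every liver. Cholangiocyte markers were called for 6 of 6, with sums of 14.5 to 24.8, 304 to 610.0 and 128 to 389 TPM, and stellate and fibroblast markers for 6 of 7. Endothelial markers were called higher for 1 (*Cdh5*) and lower for 1 (*Kdr*) of 7 in the empty livers and lower for *Kdr* in the UTOpiA livers. Hepatocyte markers, which check the labelled tissue, summed to 171434 to 187397 TPM in the normal and 43464 to 81069 TPM in the ACLF livers. They were called lower for 6 of 10 in the empty livers and 4 in the UTOpiA livers (*Alb*, *Ttr*, *Cps1* and *Cyp2c11*).

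Lastly, genes other than the members were ranked by how closely their log2 CPM followed the members over the 9 livers. The measure was the root mean square (RMS) difference after centering. *Sh2d1b* was listed at 0 TPM in all normal livers, so its rank rests on the value added to zero counts. Nearest to *Cd74* were *Sh2d1b*, *Ldhb*, *Gpm6b*, *LOC100364435* and *Rgs10*, at 0.15 to 0.24, where the median of all other genes was 1.88. *LOC100364435* was also near *Cd74* in level, with a mean TPM of 60.8 in the normal livers, 1711 in the empty livers and 1206 in the UTOpiA livers. Nearest to the mean of the 4 classical chains were *Serpina7*, *Gpr18*, *Trem1*, *Il2rg* and *Rgs10*, at 0.31 to 0.47 against a median of 1.82. The difference between ACLF and normal livers makes up most of these patterns, and the livers are the same for every gene.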

How the data were processed

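Rat liver RNA was sequenced in 9 libraries, with group and replicate taken from the labels. The authors used HISAT2 for alignment and featureCounts for reads mapped to 1 place, and deposited whole-number counts without normalization. They also deposited TPM, counts scaled by gene length that sum to the same total in each library. The sources differ on the library kit, the trimming tool (Trimmomatic in the submitters' processing notes) and the genome build (rn6 in those notes), and whether counting used strand is not given in the sources used here. The MHC class II genes were matched by symbol in both tables. Counts were filtered by filterByExpr (14089 genes kept), normalized by TMM (factors 0.80 to 1.32) and fitted with all 9 libraries in 1 quasi-likelihood model with edgeR 4.0.16 in R 4.3.3. The factors were 0.80 to 0.83 in normal, 1.11 to 1.32 in empty and 0.86 to 1.23 in UTOpiA livers. Levels, marker sums and separations in TPM lack this scaling and show larger rises over normal. *RT1-Da* had mean TPM of 10.5 in normal and 295 in empty livers, beside a fitted 19.7-fold difference. Adjusted p-values are Benjamini-Hochberg over all genes tested. They test each group difference against the spread between livers, with 3 livers a group. That spread was estimated over all 9 libraries, sharing information across genes. Count ratios use exact binomial intervals. Partner ratios were compared by exact permutation in SciPy 1.17.1. The tests were tried on simulated counts.

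The alternatives were DESeq2 1.42.0, RLE normalization, no count filter, at least 10 counts in every library, limma 3.58.1 on log2(TPM + 1) or log2(TPM + 0.1) for genes with a mean TPM of at least 1, log2(TPM + 1) without that filter, no fold threshold, only the 6 libraries compared, the replicate number as a block, and each library left out. Named genes are the members, all other class II chains, the 4 genes of each related list with the largest difference between the empty group and normal liver, and fixed regulators, receptors and markers. *Ctsc*, *Ifngr1*, *Ifngr2*, *Tgfb1*, *Tnfrsf9*, *Cd276*, *Clec4f*, *Cd5l*, *Vsig4*, *Marco*, *Cd40* and the markers given as called were named after their values were seen. The members, lists and rules were chosen with earlier results of these data known. Normal replicate 1, empty replicates 1 and 2 and the split of *RT1-DMb* were singled out from their values. A few genes counted in the lists are not named.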

Additional observations from a re-analysis of the deposited data

How the results depend on the processing

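In the comparisons with normal liver every member kept its direction under every alternative that gave it a value, and 8 or 9 members were called higher in the empty livers under most of them. The number called higher in the UTOpiA livers ranged from 5 (without normal replicate 2) to 9 with 1 liver left out. Between the UTOpiA and empty groups no member was called under any alternative. Depth limits *RT1-DMa*, *RT1-DMb* and *Cd80*, which had at most 3 counts in each normal liver, and 3 livers a group limit all ratios. DESeq2 and the limma fits with a TPM filter gave no value for 1 member each, the stricter count filter none for 4, and the fits of 6 libraries against normal liver none for 2 (empty) and 3 (UTOpiA).

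The replicate numbers did not pair the livers, since deviations from the group means of same-numbered livers correlated at -0.18 to 0.06. With the replicate number as a block, 9 and 8 members were called higher than normal, and the log2 difference of *RT1-Db1* between the UTOpiA and empty groups turned from -0.07 to 0.13, not called in either fit.

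Among all genes, at least 10 counts in every library left 1644 genes higher in the empty livers and 1384 in the UTOpiA livers. The limma fits called 690, 748 and 693 genes lower in the empty livers and 483, 524 and 473 in the UTOpiA livers, in the order log2(TPM + 1), log2(TPM + 0.1) and no TPM filter, and without a fold threshold 3036 and 2285 were lower. Between the ACLF groups DESeq2 called 52 genes above and 74 below the empty livers, limma without a TPM filter called 1 higher, and with 1 liver left out edgeR called 0 to 32 higher and 0 to 22 lower. The cause was not tested.

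Leaving out 1 liver turned the sign of some small, uncalled differences between the ACLF groups. The log2 values ranged from -0.54 to 0.050 for *RT1-Da*, -0.41 to 0.14 for *RT1-Db1*, -0.87 to 0.0569 for *RT1-DMa*, -0.0813 to 4.83 for *RT1-DMb* and -0.84 to 0.0533 for *Ciita*. The log2 ratio of *RT1-Ba* to *RT1-Bb* differed by -0.33 to 0.49 between empty and normal livers and by -0.0578 to 0.62 between the ACLF groups. That of *Cd74* to the classical chains differed by -0.25 to 0.52 (empty minus normal), -0.33 to 0.44 (UTOpiA minus normal) and -0.30 to 0.0591 (UTOpiA minus empty).

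For the lists of related genes, medians on the log2 scale moved with the method, the count filter and the liver left out. Those of the other class II chains were 2.39 (DESeq2) and 2.34 (no count filter) in the empty livers and 2.49 (DESeq2) in the UTOpiA livers, with 1 to 2 genes called there when 1 liver was left out. With at least 10 counts in every library, the processing genes had medians of 1.02 and 0.96 in the empty and UTOpiA livers, and with 1 liver left out 0.96 to 1.41 in the UTOpiA livers. The promoter factors had 2 genes called in the empty livers at 10 counts, a median of -0.0558 (DESeq2) or -0.0456 (no filter) in the UTOpiA livers, and with 1 liver left out medians of 0.0396 to 0.29 and 0.0650 to 0.27 and 0 to 1 and 1 to 2 genes called. The interferon gamma list had 4 (without normal replicate 2) to 7 called in the UTOpiA livers. The costimulation list had medians of 1.65 (DESeq2), 1.77 (no filter) and 1.00 (10 counts, 4 called) in the empty livers and 1.40 (DESeq2, 7 called) and 0.75 (10 counts) in the UTOpiA livers. With 1 liver left out its medians were 1.57 to 2.14, 1.17 to 1.60 and, between the ACLF groups, -0.57 to -0.25, with 3 to 7 (without empty replicate 2) called in the UTOpiA livers. The class I list had medians of 0.36 to 0.82 in the empty livers and 2 to 5 (without normal replicate 1) genes called in the UTOpiA livers.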
